A study of Mus musculus with 9 samples.

Results

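Open chromatin of B16 mouse melanoma cells was compared between cells that had been exposed to interferon gamma over weeks (B16_IFNg) and cells that had not (B16_untreated). The comparison used 6 of the 9 libraries of the series, 3 per group, and was made over 17185 accessible regions. These regions were built from the 11179 most significant peaks of each library on chromosomes 1 to 19 and X, which is the length of the shortest of the 6 lists, so 67074 of 101156 deposited peaks were used. Of 137541 peaks in the whole series, the rest belong to Res499, a B16 subline resistant to checkpoint blockade, and were not used here.

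The assay was ATAC-seq, in which a transposase inserts adaptors into accessible DNA of isolated nuclei. All cells were of the strain labelled B16, were injected into mice, and were sorted from tumours harvested on day 15. B16_untreated cells had no treatment. B16_IFNg cells had chronic interferon gamma before the injection, for 2 weeks in replicates 1 and 2 and for 3 weeks in replicate 3. The exposure was thus before the injection, not in the tumour. The labels do not say if replicates are separate mice or cultures, if mice were pooled, or which gate sorted the cells, and p-values here reflect the spread of these libraries alone, which may be technical.

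Interferon gamma binds a receptor made of IFNGR1 and IFNGR2, which activates the kinases JAK1 and JAK2. The transcription factors that these switch on bind gamma-activated sites (GAS), and the IRF factors induced in turn bind interferon-stimulated response elements (ISRE). Known targets in melanoma cells include the class I antigen presentation genes, the immunoproteasome, guanylate-binding proteins and the checkpoint ligand PD-L1. Chromatin at such genes can stay altered after an exposure, and open chromatin around a start site need not change when a gene is transcribed more.

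The promoters that the results turn on are shown first. They are reference sequences of the strain C57BL/6J from RefSeq (GRCm38.p6), 250 bases before to 50 bases after an annotated start, on the strand of the gene. Tap1 at chr17:34187306-34187605, H2-K1 at chr17:34000298-34000597 and H2-T22 at chr17:36042693-36042992 are class I antigen presentation genes whose regions ranked better in every B16_IFNg library. Eif2ak2 at chr17:78882523-78882822 encodes the interferon-induced kinase PKR, and its region was called in untreated cells only. Ncdn at chr4:126753716-126754015 and Bms1 at chr6:118419368-118419667 carried the regions at gene ends with the smallest p among those that ranked worse. Capitals mark NF-Y boxes (CCAAT) in Tap1 and H2-K1, GC boxes (GGGCGG) in Tap1, Ncdn and Bms1, ETS motifs (CCGGAAG) in Ncdn and Bms1, and ISRE (GAAA, 2 free bases and GAAA) and GAS (TTCNNNGAA) in H2-T22 and Eif2ak2. Each was searched on both strands, and Bms1 held no GC box.
Tap1: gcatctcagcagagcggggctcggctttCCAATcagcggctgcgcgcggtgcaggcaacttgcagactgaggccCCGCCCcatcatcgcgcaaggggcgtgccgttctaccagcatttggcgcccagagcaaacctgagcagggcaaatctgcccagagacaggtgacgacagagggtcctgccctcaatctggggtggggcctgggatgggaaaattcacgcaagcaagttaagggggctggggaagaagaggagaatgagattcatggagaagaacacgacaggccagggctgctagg
H2-K1: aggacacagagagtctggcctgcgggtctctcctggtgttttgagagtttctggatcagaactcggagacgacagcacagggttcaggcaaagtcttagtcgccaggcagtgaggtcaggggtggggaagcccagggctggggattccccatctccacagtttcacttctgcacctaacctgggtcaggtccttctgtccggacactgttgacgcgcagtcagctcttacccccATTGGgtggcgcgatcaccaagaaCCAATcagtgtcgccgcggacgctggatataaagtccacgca
H2-T22: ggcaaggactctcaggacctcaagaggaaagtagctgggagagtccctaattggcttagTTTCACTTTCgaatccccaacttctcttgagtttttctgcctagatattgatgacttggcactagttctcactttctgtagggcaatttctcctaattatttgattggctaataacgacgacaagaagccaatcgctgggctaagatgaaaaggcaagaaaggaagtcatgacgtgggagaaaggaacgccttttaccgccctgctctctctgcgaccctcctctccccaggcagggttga
Eif2ak2: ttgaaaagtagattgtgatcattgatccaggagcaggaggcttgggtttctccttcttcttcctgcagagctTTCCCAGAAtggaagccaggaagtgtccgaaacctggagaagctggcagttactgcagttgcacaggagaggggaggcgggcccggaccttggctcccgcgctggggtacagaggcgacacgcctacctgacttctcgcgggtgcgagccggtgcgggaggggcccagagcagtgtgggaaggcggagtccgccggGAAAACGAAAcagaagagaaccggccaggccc
Ncdn: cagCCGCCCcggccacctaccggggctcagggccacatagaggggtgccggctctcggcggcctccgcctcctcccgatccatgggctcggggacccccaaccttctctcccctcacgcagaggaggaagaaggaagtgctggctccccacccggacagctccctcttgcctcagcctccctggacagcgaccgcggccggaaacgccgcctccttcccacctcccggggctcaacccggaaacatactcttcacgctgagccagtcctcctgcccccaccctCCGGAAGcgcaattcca
Bms1: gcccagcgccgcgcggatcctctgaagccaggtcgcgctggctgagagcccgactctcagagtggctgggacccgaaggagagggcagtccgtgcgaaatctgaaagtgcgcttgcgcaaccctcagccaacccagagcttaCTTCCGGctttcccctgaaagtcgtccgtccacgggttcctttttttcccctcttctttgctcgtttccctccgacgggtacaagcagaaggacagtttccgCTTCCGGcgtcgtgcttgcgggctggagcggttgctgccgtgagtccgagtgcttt

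These letters are common in promoters, and a match is a description of the sequence and not a site in use. Of 21020 listed promoters, 38.5% held the NF-Y box, 46.6% the GC box, 11.7% the ETS motif, 7.76% the GAS motif and 3.36% the ISRE. In the printed windows, Tap1, H2-K1, Ncdn and Bms1 held no exact match to either interferon motif. H2-T22 held 1 ISRE, and Eif2ak2 held 1 of each. H2-K1 and Ncdn have another listed start, whose window held no exact match either. Looser forms of the motifs were not searched, so these promoters may hold interferon elements that were not marked.

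In every library peaks were ranked by significance, with rank 1 for the most significant, and a rank was compared within its own list. Ranks were used because depth and signal differed. The groups differed in how tall and wide peaks were at equal list length. The summit pileup, the number of fragments stacked at a peak's summit, was recovered from the deposited values. Its median over the peaks used was 30, 28 and 31 fragments in B16_untreated replicates 1 to 3 and 18, 13 and 18 in B16_IFNg replicates 1 to 3. The median peak width was 584, 566 and 705 bp in the untreated libraries and 470, 331 and 446 bp in the exposed libraries. All 3 exposed libraries lay below all 3 untreated libraries in both measures (two-sided exact permutation test, p = 0.1 for each, the smallest that 3 against 3 can give). A rank here says how a peak stands among the peaks of its own library, not how many fragments it has.

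The deposited lists held 15045, 25374 and 20139 peaks in B16_untreated and 16240, 13175 and 11183 in B16_IFNg. The relative depth (fragments for each kb of genome) ran from 8.14 to 10.8 in B16_untreated and from 7.59 to 9.17 in B16_IFNg. Untreated replicates 1 and 3 and exposed replicate 3 had longer shortest peaks, at least 150 bp, and are called the long fragment class below. Calls were shared to about the same extent within and between the groups. The mean Jaccard index, the shared share of all regions called in a pair, was 0.666 for pairs of the same group and 0.658 for pairs of different groups within a fragment class, and 0.649 and 0.646 across classes.

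The cells were checked against marker genes of their label. Of 11 genes of the melanocyte lineage, 7 had a region at a gene end or start, among them Mitf, the master regulator of melanocytes, and the pigment genes Pmel, Dct, Tyr and Tyrp1. The number called was 5 to 6 in the untreated and 4 to 6 in the exposed libraries. Of these markers, Sox10, Mlana, Slc45a2 and Oca2 had no region in any list used. Among all 21631 coding genes, 10527 had a region at a gene end or start, so 7 of 11 alone does not identify the cells. No region was found at any of the markers of leukocytes, B cells, myeloid cells, endothelium or keratinocytes. Among T cell markers only Cd4 had a region, at rank 10220 in untreated replicate 2 and 10892 in exposed replicate 1. Among fibroblast markers only Col1a1 had a region, at rank 7254 in exposed replicate 2 and 9039 in exposed replicate 3, and it had a peak in all 6 full lists.

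Few regions were called in every library of a group and in none of the other. Between the exposed and the untreated cells, 61 regions were gained, 0.355% of the 17185, and 96 were lost, 0.559%. Gained means called in all 3 B16_IFNg libraries and in no B16_untreated library, and lost means the reverse. Of the 1511 regions called in exactly 3 libraries, 4.04% were gained and 6.35% lost, 10.4% together. By contrast 6510 regions were called in all 6.

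Gained regions were mostly weak peaks that also existed further down the untreated lists. In at least 1 full untreated list, 60 of the 61 showed a peak, and 36 showed it in all 3 lists. The exception was 1 region with no untreated peak at all. The median of the mean rank where called was 8349 of 11179, and for lost regions it was 8445. Of the 96 lost regions, 54 had a peak in the full list of exposed replicate 1 or 2 and 42 in neither. The list of exposed replicate 3 was used at its full length, so it could hold no further peak, and gained and lost regions are not compared on this measure.

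The gained regions at genes, in the order of their mean rank, began with Itga9, Stx12, Gas8 and Tspan4. The region across an annotated end of Itga9, which encodes an integrin alpha chain, had ranks 3606, 4943 and 8281 in exposed replicates 1 to 3. In the full untreated lists it stood at 13846, 11788 and 12223. The region at Stx12, a syntaxin of endosomal membrane fusion, had ranks 4956, 3461 and 9227, and stood at 14359, 14618 and 12884 in the full untreated lists. Both genes thus had a peak in all 6 deposited lists. A region shared by Gas8 and Dbndd1 had ranks 5880, 5275 and 7276, and a region shared by Tspan4 and Polr2l had ranks 3750, 4455 and 10364. A region at the start of Map2k5, which encodes the kinase MEK5, had ranks 5940, 4902 and 7974.

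Other gained regions lay away from genes. The gained region with the best mean rank was on chromosome 15, 26170747 to 26173420, in intergenic sequence 135628 bp from the nearest coding gene end. Its ranks were 1294, 4020 and 5235 in the exposed libraries. It had no peak in untreated replicate 1, and ranks of 16604 and 16687 in the full lists of untreated replicates 2 and 3. The next were a narrow site on chromosome 1, 7723 bp from Gm39748, and a site on chromosome 6, 17739 bp from the pheromone receptor gene Vmn1r39.

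Lost regions were led by a site inside Lrrc75b. This site, on chromosome 10, 75555952 to 75556437, had ranks 7370, 2302 and 1306 in untreated replicates 1 to 3, with summit pileups of 30, 45 and 56 fragments. In the full exposed lists it stood at 13886 in replicate 1 and at 11537 in replicate 2. Hmgb3, which encodes a high mobility group chromatin protein on the X chromosome, had a region across its start with ranks 6675, 3327 and 3609 and only a peak of rank 13797 in exposed replicate 1. Fbxo46, an F-box protein of ubiquitin ligases, had a region at its start with ranks 4343, 4937 and 5316.

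Several lost regions had no peak in the longer full lists of exposed replicates 1 and 2 either. A site 19570 bp from Rngtt, the mRNA capping enzyme, had ranks 4134, 4811 and 6367 in untreated cells. A site 6392 bp from Ola1 had ranks 7883, 2986 and 2942, a site 2754 bp from 1700057G04Rik had ranks 2592, 5247 and 3530, and a site at Gm39701 had ranks 5967, 5546 and 2570. A site inside Ppp1r9a, 40526 bp from the end of Gm46949, had ranks 5685, 2571 and 5476. Of these 5 sites, only that at Gm39701 lay at a coding gene end.

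Ranks were then compared over regions called in at least 3 libraries, with a library without a call placed at 11180. In 571 of 11220 such regions, 5.09%, all 3 exposed libraries ranked better than all 3 untreated libraries. In 589, 5.25%, all 3 ranked worse. Together these were 10.3% of the regions, and each such region on its own has an exact p of 0.1.

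A model across all regions called in all 6 libraries gave 1 region at an adjusted p under 0.05. The test was limma on the normal score of the rank, with Benjamini-Hochberg adjustment over 6510 regions. The normal score places the ranks of a list on a standard normal distribution, and 1 unit is 1 SD of that distribution. A unit spans fewer ranks near the ends of a list than in its middle. With limma, 1 region ranked higher (0.0154%) and 0 ranked lower. At an unadjusted limma p under 0.05 there were 160 higher (2.46%) and 149 lower (2.29%), 4.75% together. The plot of rank differences shows both directions at all levels of significance.

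**Figure D1:**
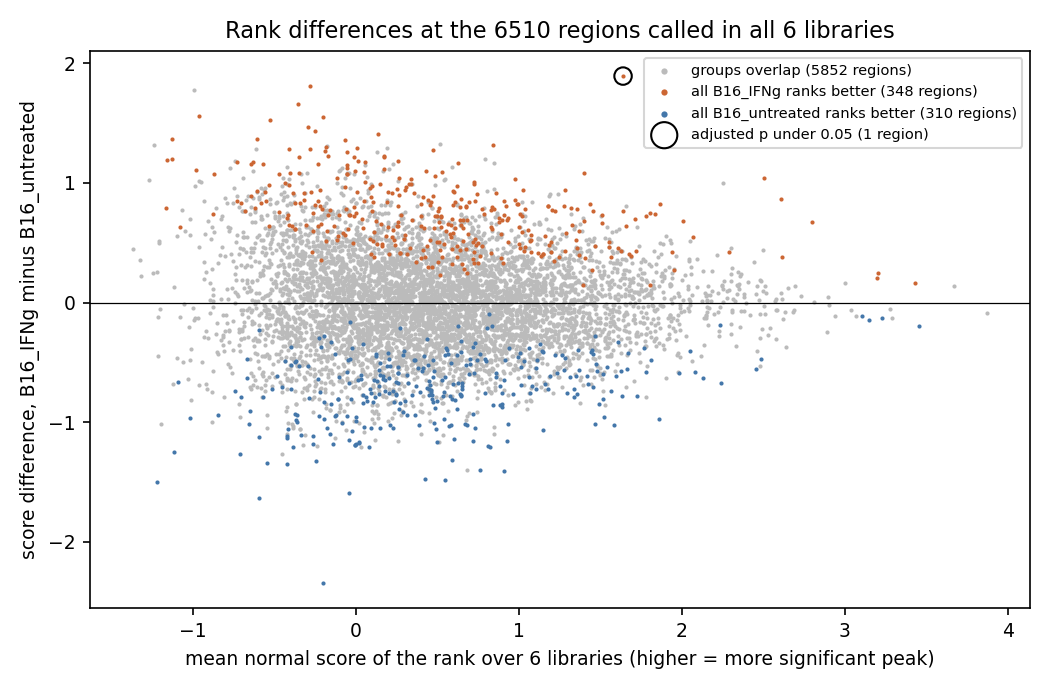
Difference of the mean normal score of the rank between B16_IFNg and B16_untreated (y axis, score units) against the mean score over 6 libraries (x axis), 1 point for each of 6510 regions. Orange and blue points are the 348 and 310 regions whose ranks do not overlap between the groups, and the circle marks the 1 region with an adjusted p under 0.05.

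The region that passed lies at the first assembled bases of chromosome 9, from 3000012 to 3000862. Its ranks were 3403, 2649 and 2221 in B16_untreated replicates 1 to 3 and 120, 23 and 56 in B16_IFNg replicates 1 to 3. Its summit pileup was 29, 34 and 40 fragments in the untreated and 48, 65 and 53 in the exposed libraries. The exposed libraries had more fragments there although their peaks were lower on the whole. The score difference was 1.89 ± 0.29 (SE) and the adjusted p in limma was 0.0088. No coding gene lies within 50 kb, and the nearest annotated end is that of Mir101c, 37807 bp away.

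It was 1 of 17 regions in the first 40 kb of the chromosome, called the block here. Mouse chromosomes carry their centromere at 1 end, and the assembled sequence next to it holds satellite repeats, where reads of many unassembled copies can pile up. The libraries had 5, 5 and 4 peaks in the block in untreated and 7, 14 and 12 in exposed cells. These covered 3657, 4642 and 3463 bases against 7214, 13811 and 9864 bases (exact permutation test, two-sided, p = 0.1). All 6 regions of the block that were called in at least 3 libraries ranked better in every exposed library, beside 5.09% of all 11220 such regions. Another 11 regions were called in exposed libraries only, most of them in a single library and none in all 3. Such calls were common elsewhere. Over all 17185 regions, 2344 were called in 1 exposed library only and 1702 in 1 untreated library only. The block was singled out after its values were seen, and how many repeat copies the reads come from was not tested.

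Other sites with few genes around them followed. A second site of the block, from 3023871 to 3025577, had ranks 63, 554 and 113 in untreated and 12, 12 and 18 in exposed cells, with pileups of 56, 51 and 75 against 109, 101 and 93 fragments. A site on chromosome 14, from 19415732 to 19419414, had ranks 70, 1359 and 127 against 14, 13 and 16, and pileups of 77, 59 and 102 against 145, 125 and 132 fragments. A site on chromosome 12, from 3109886 to 3110090, had ranks 27, 271 and 55 against 10, 7 and 15. The groups did not overlap at any of the 3 sites, in rank or in pileup, and untreated replicate 2 had the lowest rank and pileup at each. None passed the adjusted threshold in limma (adjusted p = 0.806, 0.806 and 0.976). On quantile-normalised log2 values all 3 passed it in limma (adjusted p = 1.79e-05, 1.14e-05 and 2.02e-05). The chromosome 9 and 14 sites also passed in limma with the replicate block (adjusted p = 0.0302 and 0.00288) and without untreated replicate 1 (0.019 and 0.0184). Within 250 kb of the first assembled base of a chromosome, 21 regions were called in at least 3 libraries, of which 8 ranked better and 1 ranked worse without overlap. Outside chromosome 9 this was 2 better and 1 worse of 15. Over all 11220 regions called in at least 3 libraries, 5.09% ranked better and 5.25% worse. The chromosome 9 part is the block, which was singled out after its values were seen.

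The call at the start of chromosome 9 rests on all 3 exposed libraries. Without B16_IFNg replicate 1, 2 or 3 the adjusted p was 0.117, 0.409 and 0.262, and the score difference stayed between 1.75 and 2.04. It was kept with the fragment class as a term (difference 1.89, adjusted p = 0.0238 in limma).

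At gene ends, the regions with the smallest p among those that ranked better belonged to Lsm2, Gorasp1, Mindy4, Sh3glb1 and Mylip. Lsm2 encodes a subunit of the LSM ring, which binds U6 RNA and takes part in mRNA decay. Its region had ranks 7886, 10333 and 10551 in untreated and 815, 6093 and 3331 in exposed cells, and pileups of 23, 16 and 20 against 28, 11 and 19 fragments. The groups did not overlap in rank, but they did in pileup. The score difference was 1.81 ± 0.49 (SE), with an unadjusted p of 0.00129 and an adjusted p of 0.976 in limma. Mindy4, a predicted deubiquitinase, had ranks 3223, 1864 and 1686 against 393, 434 and 140. Its pileups were 40, 50 and 56 against 38, 30 and 43 fragments, so the better rank did not come with more fragments.

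Gorasp1 encodes the Golgi stacking protein GRASP65 and shares its region with Ttc21a. Its ranks were 10538, 8084 and 10250 against 2318, 6460 and 2353. Sh3glb1, whose product endophilin B1 acts in autophagy, had ranks 2701, 3062 and 8693 against 676, 1169 and 512. Mylip, the ubiquitin ligase that degrades the LDL receptor, had ranks 8417, 9166 and 8299 against 1799, 2721 and 4964. A site on chromosome 6, 25409 bp from Strip2, had ranks 8833, 10577 and 8357 against 4232, 4351 and 2615. In limma the adjusted p of each of these 4 regions was 0.976.

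The lower region with the smallest p was that of Ncdn, which encodes neurochondrin, a neuronal protein, and whose start it shares with AU040320. It lies on chromosome 4, from 126753197 to 126754215, across the promoter printed above. Its ranks were 3331, 1883 and 871 in untreated and 9626, 11066 and 8497 in exposed cells. Its summit pileups were 33, 41 and 56 against 14, 9 and 13 fragments. Pileups were lower in the exposed libraries on the whole, so a lower pileup is no separate observation. That applies to Bms1, Sdhb and Bach1 below as well. The score difference was -2.34 ± 0.48 (SE), with an adjusted p of 0.227 in limma.

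Bms1 and Sdhb stood near the top of the untreated lists. Bms1, a GTPase of small ribosomal subunit assembly, had ranks 143, 81 and 104 in untreated and 1007, 998 and 876 in exposed cells, with pileups of 60, 88 and 87 against 31, 24 and 32 fragments. Sdhb, the iron-sulfur subunit of succinate dehydrogenase, had ranks 352, 256 and 225 against 1986, 1416 and 2357, with pileups of 72, 87 and 90 against 35, 26 and 33 fragments. Vrk1, a nuclear kinase of the cell cycle, had ranks 80, 215 and 436 against 1339, 1348 and 2138. Hddc2, a nucleotidase, had ranks 434, 1310 and 2426 against 7348, 7068 and 3325. The groups did not overlap at any of the 4 genes, and the adjusted p of each was 0.976 in limma.

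The other regions that ranked worse lay outside promoters. A site inside Itga2, the collagen-binding integrin alpha 2, had ranks 2322, 2482 and 2752 in untreated and 8509, 10696 and 5974 in exposed cells. A site inside Col4a4, a chain of basement membrane collagen, had ranks 1767, 626 and 408 against 5376, 7901 and 2772. A site 9811 bp from the chemokine gene Ccl25 had ranks 1049, 532 and 363 against 5779, 7853 and 1324. Sites near Pick1 (15717 bp) and Rock2 (24131 bp), the latter a kinase of actomyosin contraction, had ranks of 2174, 1107 and 1006 against 6193, 10033 and 3623, and of 1997, 1295 and 449 against 5599, 9788 and 3184. At all 5 sites exposed replicate 2 ranked worst and exposed replicate 3, the library with 3 weeks of interferon, ranked best of its group. Exposed replicate 2 also had the lowest median pileup, 13 fragments, and its part in these values was not tested. In limma the adjusted p of each of the 5 sites was 0.976.

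**Figure D2:**
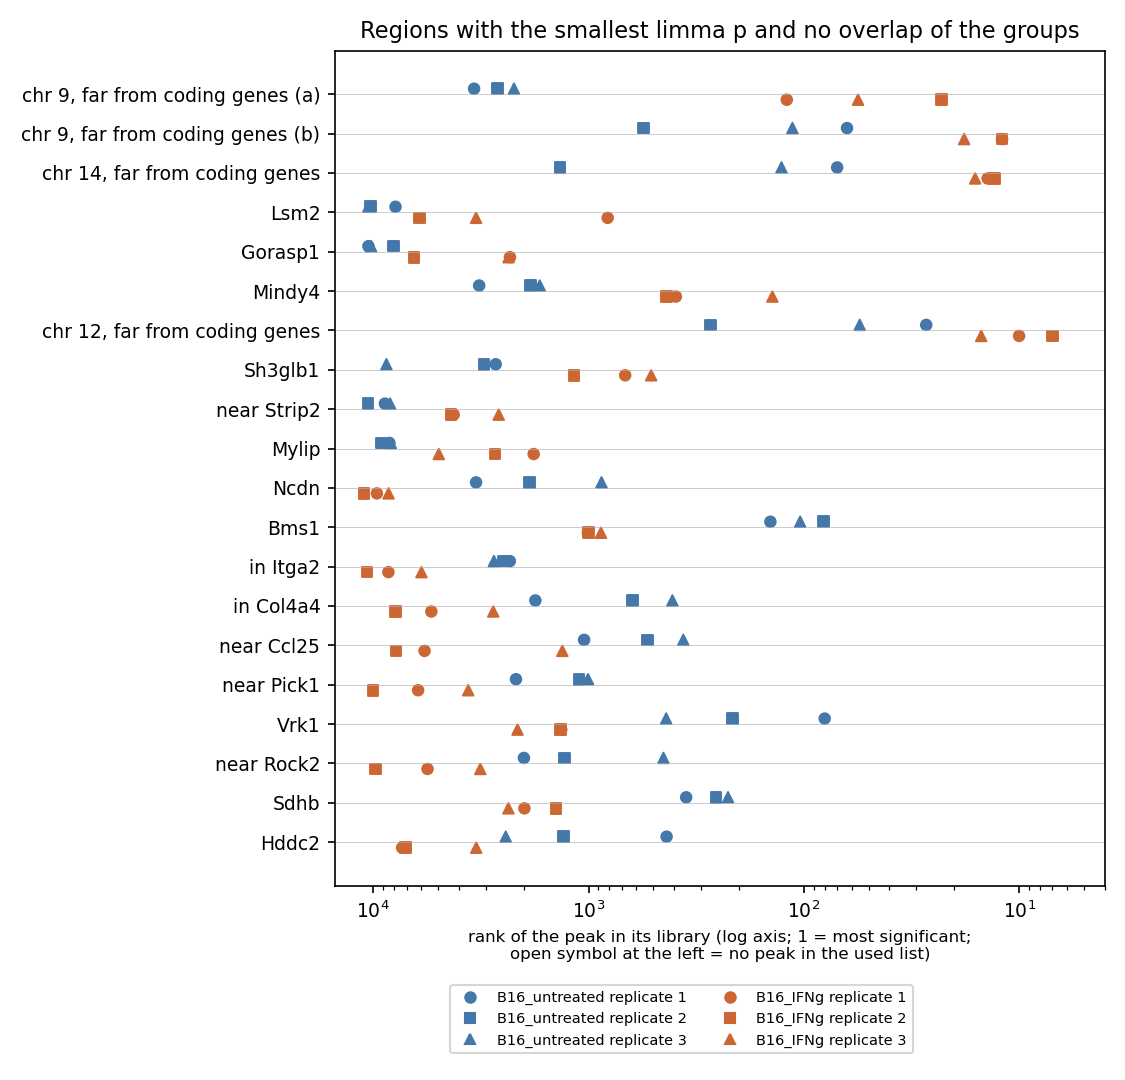
Ranks of the 10 regions of higher and the 10 of lower rank with the smallest limma p among those whose groups do not overlap (x axis, log scale, better ranks to the right), with blue for B16_untreated, orange for B16_IFNg and a symbol for each replicate. In the upper 10 rows every orange point lies right of every blue point, and in the lower 10 rows every orange point lies left of every blue point.

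Among regions whose ranks did not overlap, the class of a region went with the direction. Regions at coding gene ends, within 1 kb of an annotated end, ranked better more often than worse in exposed cells, with 428 (5.74%) against 316 (4.24%) of 7461. Every other class went the other way. At ends of non-coding RNA genes it was 26 against 44 of 543, inside coding genes 72 against 113 of 2000, in intergenic sequence within 50 kb of a coding gene 25 against 71 of 820, and farther away 20 against 45 of 396. Over all regions it was 5.09% better against 5.25% worse. Of the regions that ranked better 75.0% lay at coding gene ends, of those that ranked worse 53.7%, and of all 11220 regions 66.5%. These directions held when each of the 6 libraries was left out and when peaks were ranked by fold enrichment. With only the best 5589 peaks of each list they held for 4 of the 5 classes, and the farthest intergenic class had 12 better against 11 worse. The classes were not counted for calls that needed 50% of the region covered, a setting with 252 regions better and 1092 worse in all. All these class counts are counts of regions, which are not replicates. The median rank per library averaged 4646 in exposed and 4623 in untreated libraries at coding gene ends, and 7262 and 7255 inside coding genes. It was 7933 and 7554 in the nearer intergenic class and 7864 and 7596 in the farther (exact permutation test, p = 0.2 and 0.1).

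Gained and lost regions are among those that ranked better and worse, so their classes are no separate observation. At coding gene ends lay 30 of the 61 gained (49.2%) and 22 of the 96 lost regions (22.9%), against 51.1% of all 17185 regions. Inside coding genes it was 13 gained and 25 lost, and in intergenic sequence within 50 kb of a coding gene 8 gained and 26 lost. The widths of these regions were alike, with medians of 541 bp for gained and 525.5 bp for lost regions.

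**Figure D3:**
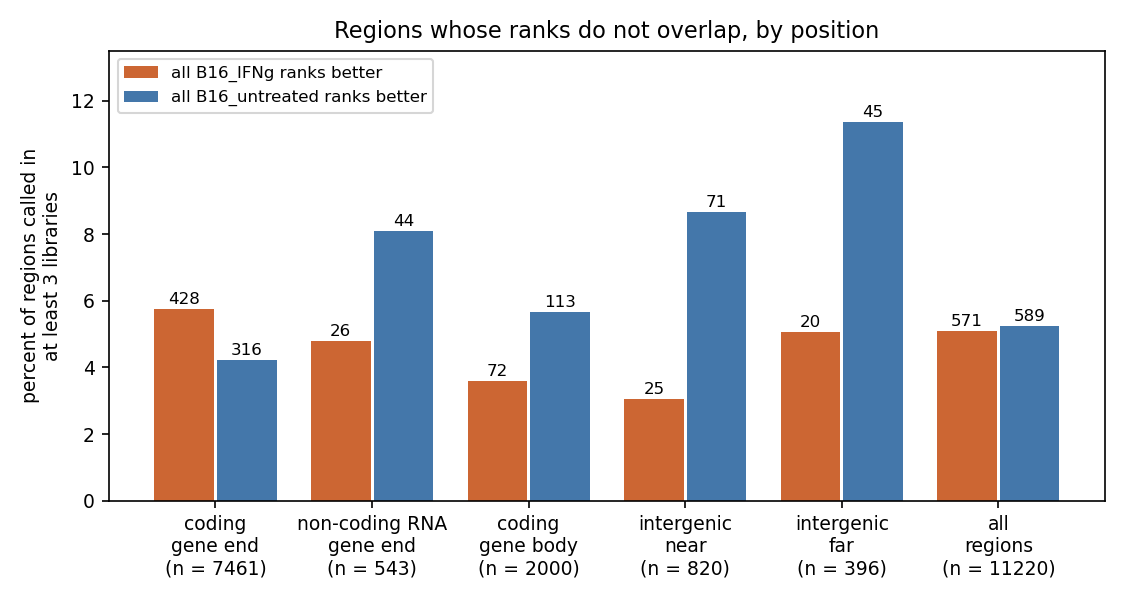
Share of regions called in at least 3 libraries whose ranks do not overlap between the groups (y axis, percent), by position, with the number of regions above each bar. Orange bars are regions where all 3 B16_IFNg libraries ranked better and blue bars those where all 3 ranked worse. Orange is above blue at coding gene ends (428 against 316) and below it in the other 4 classes.

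Shares of peaks per library did not differ between the groups beyond their spread. Of the peaks used, 63.6%, 63.2% and 61.8% lay at coding gene ends in untreated replicates 1 to 3, and 65.8%, 67.1% and 61.7% in exposed replicates 1 to 3. The groups overlapped, since exposed replicate 3 had the lowest share of the 6 libraries. The means were 62.9% ± 0.955 (SD, n = 3) and 64.9% ± 2.83 (SD, n = 3), a difference of 2.01 percentage points (two-sided exact permutation test, p = 0.4). Within the short fragment class, exposed replicates 1 and 2 lay 3.30 points above untreated replicate 2, and within the long class exposed replicate 3 lay 1.02 points below the mean of untreated replicates 1 and 3 (difference -1.02). Intergenic peaks near coding genes were 8.30%, 8.64% and 8.82% of the untreated and 7.76%, 7.26% and 8.55% of the exposed peaks (exact permutation test, p = 0.2). The weeks of exposure and the fragment class cannot be told apart among the exposed libraries.

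Class I antigen presentation had 3 genes whose regions ranked better, H2-K1, H2-T22 and Tap1. Class I molecules consist of a heavy chain and beta-2 microglobulin and carry peptides that the TAP transporter brings into the endoplasmic reticulum. Of 17 genes of the list, 13 had a region and 11 a region called in at least 3 libraries, and 3 of these 11 ranked better and 0 ranked worse without overlap. Over all 9234 coding genes with such a region 526 (5.7%) ranked better and 404 (4.38%) ranked worse. For the 6 genes called in all libraries, the median score difference was -0.46 (all coding genes 0.01), which is the opposite direction. The number of the list's genes with a call was 8, 8 and 10 in the untreated and 11, 12 and 9 in the exposed libraries. In the full lists it was 8, 13 and 13 in the untreated and 13, 13 and 9 in the exposed libraries.

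Tap1 encodes a TAP subunit, and Psmb9, a subunit of the immunoproteasome, starts back to back with it. Both share a region on chromosome 17, from 34187258 to 34188038. Its ranks were 10590, 8040 and 8395 in untreated and 6679, 4131 and 2784 in exposed cells, without overlap. Its summit pileups were 20, 21 and 24 against 17, 15 and 21 fragments, so the better rank came without more fragments. The score difference was 1.21 ± 0.48 (SE), with an unadjusted p of 0.0184 and an adjusted p of 0.976 in limma.

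H2-K1 and H2-T22 are class I heavy chain genes, of the classical and the non-classical kind. The H2-K1 region, from 34000043 to 34000519 on chromosome 17, was a gained region with ranks 6843, 11030 and 6747 in exposed cells, and reached 3 calls through these libraries alone. In the full untreated lists it was missing in replicate 1 and stood at 13726 and 13439 in replicates 2 and 3. The H2-T22 region had ranks 8366 and 6228 in untreated replicates 1 and 3, no call in replicate 2, and ranks 5458, 4987 and 4432 in exposed cells. Heavy chain genes are close copies of each other, and how reads that fit several copies were placed was not stated in those sources, which leaves these values uncertain.

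The other members overlapped between the groups. B2m, the light chain of class I, had ranks 1325, 4876 and 1253 in untreated and 1481, 7289 and 4844 in exposed cells. Nlrc5, the transactivator of class I genes, had rank 10650 in untreated replicate 3, and ranks 7531 and 3752 in exposed replicates 1 and 2. Pdia3, a member of the peptide loading complex, had ranks 879, 728 and 862 against 643, 4927 and 4855, a score difference of -0.82 with an unadjusted limma p of 0.0476. Tap2, Tapbpl, H2-Q7 and H2-T23 had no region in any list used. Class II genes had hardly any, with H2-DMa at ranks 7862 and 8794 in untreated replicates 1 and 2 and 4600 and 10383 in exposed replicates 2 and 3, and none at Ciita, their transactivator.

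The immunoproteasome was split. Besides Psmb9, Psmb10 was the other inducible catalytic subunit with a region, with ranks 6871, 7499 and 9209 in untreated cells, 9994 and 9370 in exposed replicates 1 and 2, and no call in exposed replicate 3. It thus ranked worse without overlap. Psmb8 had no region in any list used, and the activator genes Psme1 and Psme2 overlapped. Of 28 genes of the constitutive proteasome called in at least 3 libraries, 2 ranked better (Psmb1 and Psma4) and 2 worse (Psma3 and Psmd6). Each was 7.14% of the 28, beside 5.7% better and 4.38% worse over all coding genes.

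The interferon pathway itself showed no region without overlap. Of 17 genes for interferon receptors, JAK kinases and STAT factors, 12 had a region called in at least 3 libraries. Of these 12, 0 ranked better or worse, beside 5.7% better and 4.38% worse over all coding genes. Ifngr1, the ligand-binding receptor chain, had ranks 2020, 5214 and 1996 in untreated and 1370, 5525 and 1040 in exposed cells. Jak1 had ranks 3049, 2057 and 883 against 2127, 1474 and 1666.

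The IRF family likewise overlapped, with the exception of Irf2bp2, a corepressor that binds IRF2. Irf2bp2 had ranks 2519, 1777 and 1029 in untreated and 4448, 8265 and 3317 in exposed cells. Its unadjusted p was 0.0242 and its adjusted p 0.976 in limma. Irf1, an early interferon gamma target, had ranks 6502, 5038 and 6974 against 3636, 6674 and 8836. Irf9, which binds DNA at interferon-stimulated genes, had ranks 8836 and 10481 in untreated replicates 2 and 3 and 3297 and 9497 in exposed replicates 1 and 2. Exposed replicate 1 had the best rank at both genes.

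Brakes on JAK-STAT signalling stood on both sides. Of 14 such genes called in at least 3 libraries, 2 ranked better and 2 worse (14.3% each), beside 5.7% and 4.38% of all coding genes. Pias3, an inhibitor of STAT3, had ranks 4166, 5870 and 5680 against 3100, 2427 and 2431, and the phosphatase gene Ptpn11 had ranks 5042, 6428 and 8634 against 4496, 3337 and 4386. The cytokine-induced inhibitors Cish (3357, 4305 and 6076 against 6199, 8555 and 6329) and Socs5 (2146, 2422 and 2166 against 5450, 3781 and 3286) ranked worse. Socs1, the main brake on interferon gamma signalling, overlapped, with ranks 6395, 3473 and 3860 against 4728, 6438 and 1790.

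Interferon-stimulated genes gave 0 regions that ranked better and 2 that ranked worse (13.3%), of 15 genes called in at least 3 libraries. Over all 9234 coding genes with such a region it was 5.7% better and 4.38% worse. The region across the start of Eif2ak2, on chromosome 17 from 78882198 to 78882889, was a lost region. It reached 3 calls through the untreated libraries alone. Its ranks were 8757, 10070 and 9762 in untreated cells, with pileups of 19, 16 and 20 fragments, and it had no peak in the full lists of exposed replicates 1 and 2. Ifit2, an antiviral protein that binds RNA, had ranks 6050, 6579 and 3485 in untreated cells, 6974 and 6707 in exposed replicates 1 and 3, and no call in exposed replicate 2. Usp18, the protease that removes ISG15 and dampens the type I receptor, overlapped, with ranks 7845, 4002 and 2988 against 2390, 1042 and 3559.

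Several genes of the list were called in exposed replicate 1 alone within the equal-length lists. They were Ifit1 (rank 7163), Ifi35 (8089), Ifitm3 (7822), Xaf1 (9779) and the chemokine gene Cxcl10 (10904). That library called 20 of the list's genes, against 11 and 13 in exposed replicates 2 and 3 and 12, 13 and 15 in the untreated libraries. In the full lists it was 16, 22 and 21 in the untreated and 21, 12 and 13 in the exposed libraries. Among all coding genes, the equal-length lists called 8829, 8681 and 8585 in the untreated and 9006, 8892 and 8455 in the exposed libraries. Of 16 guanylate-binding and immunity-related GTPases, which act against intracellular pathogens, 4 had a region and none a region called in at least 3 libraries. Among all 21631 coding genes, 10527 had a region and 9234 a region called in at least 3 libraries. The 4 GTPase genes were Gbp3, Gbp7, Irgm1 and Irgm2, with 0, 1 and 0 genes called in untreated and 3, 1 and 2 in exposed libraries. In the full lists it was 0, 3 and 2 in untreated and 4, 1 and 2 in exposed libraries.

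**Figure D4:**
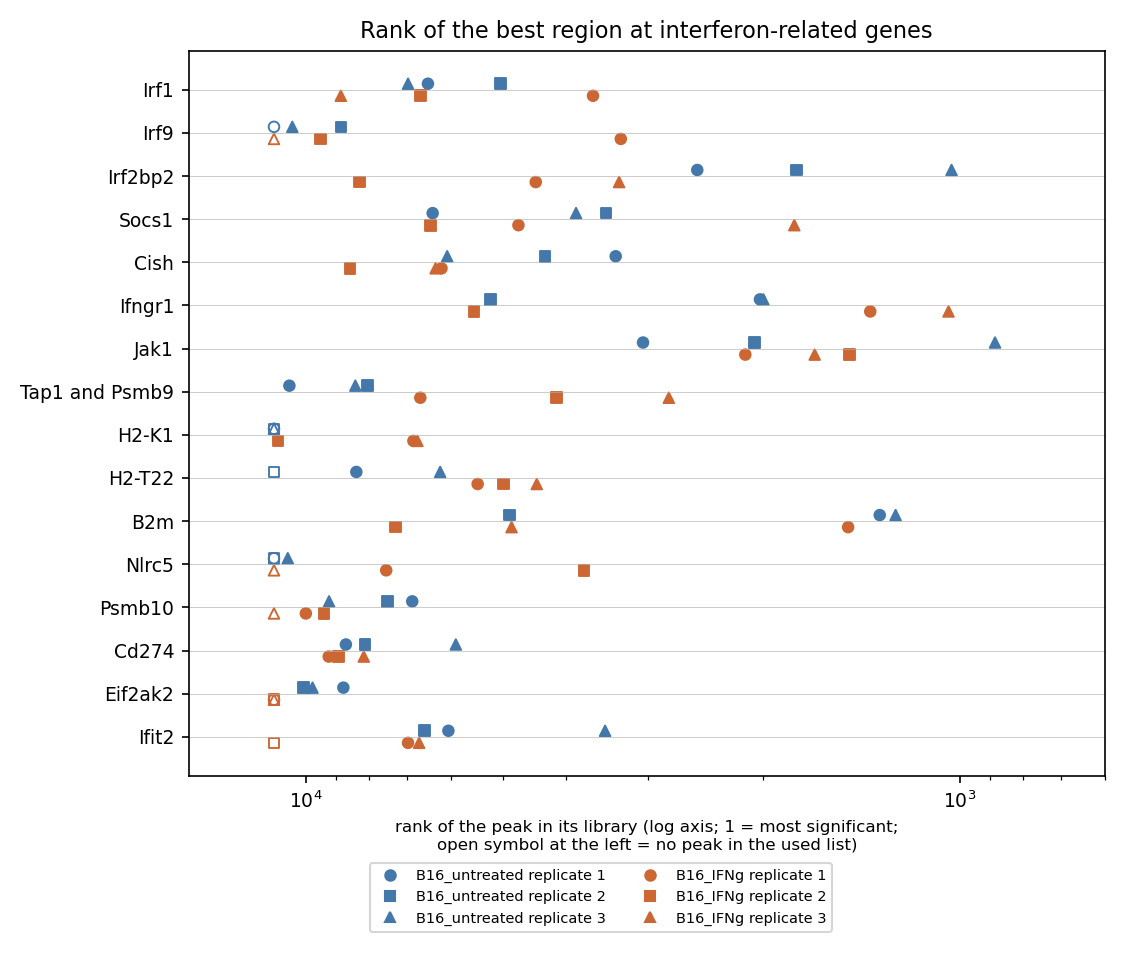
Ranks of the best region at 16 genes or gene pairs of the interferon response (x axis, log scale, better ranks to the right), with blue for B16_untreated, orange for B16_IFNg and a symbol for each replicate. Open symbols mark a library without a call. All orange symbols lie right of all blue symbols for Tap1 and Psmb9, H2-K1 and H2-T22, and all lie left for Irf2bp2, Cish, Psmb10, Eif2ak2 and Ifit2.

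Ligands of inhibitory receptors overlapped at all 7 genes called in at least 3 libraries. Of all coding genes, 5.7% ranked better and 4.38% worse without overlap. Cd274, which encodes PD-L1, shares its region with Plgrkt, on chromosome 19 from 29361698 to 29362323. Its ranks were 8679, 8115 and 5894 in untreated and 9220, 8910 and 8150 in exposed cells, with pileups of 20, 20 and 27 against 12, 9 and 12 fragments. The ranks overlapped, with a score difference of -0.32 ± 0.50 (SE) and an adjusted p of 0.988 in limma. Pdcd1lg2, which encodes PD-L2, had no region in any list used.

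Pigment and identity genes showed single differences. Of 15 melanin synthesis and melanosome genes called in at least 3 libraries, 0 ranked better and 1 worse (6.67%). For all coding genes it was 5.7% better and 4.38% worse. The gene that ranked worse was Slc24a5, which encodes a melanosomal ion exchanger. It was a lost region with ranks 10986, 10866 and 9918 in untreated cells, close to the end of the lists. In the full list of exposed replicate 1 it had rank 12368. Mitf had ranks 1150, 1474 and 3046 against 2284, 1831 and 2412, Dct 4113, 9698 and 2526 against 7888, 9417 and 6596, and both overlapped. Tyr was called in untreated replicate 1 at 8672 and in exposed replicates 2 and 3 at 9776 and 6776, and it had a peak in all 6 full lists.

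Few neural crest and lineage factors stood without overlap. Of 5 melanocyte regulators called in at least 3 libraries, 1 ranked better and 1 worse (20% each). Of 9 neural crest and dedifferentiation genes, 1 ranked better (11.1%) and 0 worse. For all coding genes it was 5.7% better and 4.38% worse. Pax3, a neural crest factor upstream of Mitf, had ranks 5108, 6756 and 5820 in untreated and 2469, 4287 and 2915 in exposed cells. Sox9, another neural crest factor, had ranks 10927, 10283 and 9914 against 7276, 8117 and 6904. Tfe3, a relative of Mitf, had ranks 8992, 2227 and 6312 in untreated cells, 10275 and 10664 in exposed replicates 1 and 2, and no call in exposed replicate 3. In limma the unadjusted p was 0.117 for Pax3 and 0.0636 for Sox9, and Tfe3 was not in the fit.

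Of 19 genes of the AP-1 list, 3 ranked worse and 0 better, beside 4.38% and 5.7% of all coding genes. At an unadjusted limma p under 0.05, 1 of the list was higher and 1 lower. Bach1, a repressor of haem oxygenase, had ranks 454, 1277 and 1674 in untreated and 6340, 2681 and 2269 in exposed cells. Its unadjusted p was 0.0328 and its adjusted p 0.976 in limma. Atf4, the effector of the integrated stress response, had ranks 4952, 3406 and 1446 against 7663, 5717 and 5282. Maff had ranks 4547, 7855 and 8401 in untreated cells and 8604 in exposed replicate 1. The pileup at Bach1 was 53, 48 and 50 against 18, 17 and 27 fragments.

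Glycolysis had 3 of 20 genes that ranked worse (15%) and 1 that ranked better (5%). For all coding genes it was 4.38% worse and 5.7% better. Pfkp, the platelet form of phosphofructokinase, had ranks 3040, 5818 and 3733 in untreated and 8736, 9746 and 8271 in exposed cells, with an unadjusted limma p of 0.014 and an adjusted p of 0.976. Hk1, the first enzyme of the pathway, had ranks 3089, 1974 and 1923 against 5356, 5251 and 4952. Pfkfb3, which makes the activator of phosphofructokinase, had ranks 3182, 3407 and 4324 against 5214, 7240 and 5305. The glucose transporter gene Slc2a3 went the other way, with ranks 10300, 9095 and 8694 against 6976, 5933 and 5115.

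The respiratory chain had 2 genes that ranked better, Cox5b and Ndufs8, and 2 that ranked worse, Sdhb and Ndufa5, of 33 (6.06% each). For all coding genes it was 5.7% better and 4.38% worse. Cytosolic ribosomal protein genes had 4 that ranked better (8.16%) and 2 that ranked worse (4.08%), of 49. Rpl38 had the largest difference among them, with ranks 8202, 10705 and 10476 in untreated and 5499, 3929 and 6426 in exposed cells. The score difference was 1.36 ± 0.51 (SE), with an unadjusted p of 0.0135 and an adjusted p of 0.976 in limma. Rpl14 had ranks 3486, 6540 and 8766 against 1826, 3080 and 2135, and Rpl22 had 5599, 5688 and 7433 against 1618, 4276 and 2998. Rps19 went the other way, with ranks 789, 1231 and 1390 against 2058, 4304 and 1663.

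Cell cycle genes were balanced. Among 29 genes of replication and mitosis 2 ranked better and 2 worse (6.9% each), and among 18 of G1 control likewise 2 and 2 (11.1% each). For all coding genes it was 5.7% better and 4.38% worse. Ccnb1, the cyclin of mitotic entry, had ranks 5426, 4156 and 5328 in untreated and 2782, 709 and 1819 in exposed cells. Its unadjusted p was 0.0246 and its adjusted p 0.976 in limma. Rpa2, a subunit of the single-strand DNA binding complex, had ranks 8764 and 9697 in untreated replicates 1 and 3 and 2527, 5017 and 3423 in exposed cells. Pcna went the other way, with ranks 2066, 1972 and 1091 against 5099, 2454 and 2420. Myc overlapped, and Cdkn2a had no region in any list used.

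Further lists gave few differences each, beside 5.7% better and 4.38% worse over all coding genes. Tnfaip3, which ends NF-kB signalling, ranked better (10761, 6279 and 9037 against 5865, 4095 and 5963) as the only 1 of 16 genes of its list. Insig1, which holds the sterol sensor in the endoplasmic reticulum, ranked better (4277, 3323 and 6102 against 2983, 1228 and 1132) as the only 1 of 18 cholesterol genes. Actl6a and Dpf3, subunits of SWI/SNF remodelling complexes, ranked worse as 2 of 19 (10.5%). MAPK feedback genes (18) and WNT genes (13) had none without overlap in either direction.

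Over all 29 lists, 463 genes had a region called in at least 3 libraries, of which 25 ranked better (5.40%) and 29 ranked worse (6.26%). Among all coding genes with such a region it was 5.7% and 4.38%. The median score difference was 0.04 for list genes and 0.01 for all coding genes. With limma, 0 list genes had an adjusted p under 0.05, and 10 higher and 8 lower had an unadjusted p under 0.05.

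Promoter letters were counted in both directions. Of the 456 listed promoters in regions that ranked better, 2.63% held an ISRE, against 1.69% of 356 promoters in regions that ranked worse and 2.40% of all 8121 promoters in regions called in at least 3 libraries. The GAS motif was in 3.95% and 7.58%, against 6.23%. The cyclic AMP response element (TGACGTCA) was in 4.82% and 2.25%, against 3.90%, and the GC box in 77.0% and 68.8%, against 73.2%. The median GC content was 64.7% and 62%, against 63%. Of the 12 motifs searched no test was made, since promoters of 1 region are not independent.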

How the data were processed

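The 6 libraries were grouped by their labels. Per the submitters' processing notes, reads were handled with CASAVA, cutadapt 1.9, Bowtie2 2.2.4 and MACS2 on build GRCm38 (mm10). Which MACS2 version and settings were used, and whether reads were shifted for the transposase, is not given in the sources used here; without a shift, peak edges move by a few bases only. Peaks were called by the authors in each library separately, and the lists were deposited with the fold enrichment over local background (a ratio), the −log10 p-value and the −log10 q-value of each peak. These values are the authors' and served only to rank, filter and describe peaks within a list.

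Here the 11179 peaks with the highest −log10 p were kept per library, overlapping peaks were merged, and any overlapping peak made a region called. Peaks on chromosomes M and Y (2 to 12 and 2 to 5 per library) were left out. The lowest −log10 p used ran from 12.7 to 13.9 in untreated replicates 2 and 3, was 9.67 in untreated replicate 1, and was 8.59, 6.61 and 4.72 in exposed replicates 1 to 3. The lists carry no counts. Fold and −log10 p fix the whole summit pileup of a peak, recovered uniquely within 0.01 for 96.1% to 99.8% of peaks with a −log10 p under 200. The lowest local background gave the relative depth, and reads per library are not known. All positions are 1-based on GRCm38.

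Ranks were turned into normal scores and fitted with limma 3.58.1 (R 4.3.3, moderated variances with a trend), with no covariate, on regions called in all 6 libraries. For values per library, two-sided exact permutation tests were used (scipy 1.17.1). The fit and the merging were tested on simulated data. Genes came from the RefSeq table of GRCm38.p6, with 21631 coding genes, of which 17274 had a listed start. A gene stands for its best-ranked region within 1 kb of either end or a listed start. The table gives no exons or UTRs. Of 683 genes in 29 pathway and 8 marker lists, 680 were found.

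Named are the 10 regions of higher and 10 of lower rank with the smallest limma p among those without overlap, the best 8 gained and 8 lost regions by mean rank, up to 4 list genes per list, a fixed set of interferon and melanoma genes, and single genes beside them that were chosen after their values were seen. Of the fixed set, 1 gene is not reported here. The members and lists were chosen with earlier results of these data known. Alternatives were ranking by fold, shorter or full lists, stricter calls, other scales, the replicate number or fragment class as a term, and leaving out each library.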

Additional observations from a re-analysis of the deposited data

How the results depend on the processing

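Ranking by fold enrichment gave 139 gained regions and 0 regions of higher rank in limma. The best 5589 peaks of each list gave 60 lost regions, 312 that ranked better and 291 that ranked worse. All deposited peaks, in lists of unequal length, gave 4 gained and 774 lost regions. Where a call needed 50% of the region covered, 32 were gained, 550 lost, 252 ranked better and 1092 worse, and exposed peaks are narrower. Allowing 1 library against the pattern gave 619 and 951. Leaving out each library in turn gave 119 to 210 gained, 184 to 337 lost, 871 to 1232 better and 881 to 1302 worse, since fewer libraries have to agree.

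The 1 limma call became 0 with absent libraries placed at the end of the list, with rank percentiles, and without the variance trend. It was also 0 without intergenic regions over 50 kb from coding genes (chosen after seeing the data), a class that holds the called region itself. It became 4 with quantile-normalised log2 values, at both named chromosome 9 sites and the chromosome 12 and 14 sites, and 0 to 5 with each library left out. Without untreated replicate 1 the 5 calls were 3 sites of the chromosome 9 block, the chromosome 14 site and a site near Brox, without untreated replicate 3 there were 2, and without any exposed replicate 0. The cause of these changes was not tested. Whether replicate numbers pair the samples is not known. Deviations of same-numbered libraries correlated at 0.00212, 0.054 and 0.0532, and those of differently numbered libraries at -0.0558 to 0.0041. Values this small, from 3 replicates, do not settle it. With the replicate block, limma called 4 regions higher, at both named chromosome 9 sites, the chromosome 14 site and the site near Brox, and 1 lower, Ncdn (adjusted p = 0.00288). Of 846 values of 56 named regions under the alternatives, 831 kept direction and call, 0 reversed, 7 were no longer and 8 were newly past the threshold. These regions were named from the same libraries that the alternatives reuse, and most had not passed the threshold in the main fit. A region absent under an alternative gave no value there. The counts thus do not measure how firm a region is. Exposed replicate 2 had the lowest median pileup, 13 fragments.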
